A study of Mus musculus with 9 samples.

Results

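The genes followed here in mouse keratinocytes are 6: Fras1, Frem1 and Frem2, which encode the matrix proteins of the Fraser complex, Grip1, which encodes their adaptor, and Npnt and Itga8, which encode a basement membrane ligand and the alpha chain of its integrin receptor. They were taken from the deposited gene table by symbol, all 6 were present among its 24532 genes, and all 6 passed the filter on low counts that left 14507 genes. The libraries came from C57BL/6 mouse skin with no treatment, sorted as viable cells lacking the leukocyte marker CD45.2, at postnatal day 1, day 7 and day 14, with 3 libraries at each age and 9 in all. The sort is set against leukocytes and dead cells and requires no keratinocyte protein. The labels do not say if each library stems from its own animal or from a pool, so errors and p-values cover only how much these libraries varied, in part perhaps for technical reasons. Library numbers are those of the column headers. The day 1 columns carry the header D0 and were taken as day 1 because the other 2 ages have headers of their own.

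As background, Fras1, Frem1 and Frem2 are very large matrix proteins built of chondroitin sulfate proteoglycan repeats and Calx-beta domains. They join into a complex that lies beneath the lamina densa of the epidermal basement membrane and stabilise one another there, and Grip1, a cytoplasmic adaptor with PDZ domains, carries Fras1 and Frem2 to the basal side of the cell. Loss of the complex lets the fetal epidermis lift from the dermis, while after birth anchoring fibrils of collagen VII hold the same interface. Npnt (nephronectin) is a basement membrane ligand of the integrin whose alpha chain is Itga8, a receptor best known on mesenchymal cells such as those of the dermis, the arrector pili muscle and the developing kidney.

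The members differed in how long they were kept. Fras1 was the member with the steepest loss in the second week, Frem1 and Itga8 were already low at day 7, Frem2 and Grip1 declined by smaller factors, and Npnt peaked at day 7. The set was chosen by the read counts of these same genes at all 3 ages, with results of these data known, among them the low level of Fras1 at day 14. The levels and fold changes of the members are therefore given as a description, with no test. Levels are CPM, read counts scaled to the size of the library after TMM scaling, as mean ± SD of 3 libraries, and fold changes are log2 values ± SE from edgeR. Where genes are compared with one another, CPM per kb is used, which is CPM divided by the exon length of the gene.

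The regions upstream of Frem1, Frem2 and Npnt are shown because these genes parted ways over the 2 weeks: Frem1 was nearly gone by day 7, while Frem2 and Npnt were the members with most transcript left at day 14. Each line gives the 250 bases before 1 start listed for the gene in a RefSeq promoter table (GRCm38.p6, the mm10 assembly, minus strand), 5′ to 3′ along the gene, with capitals on every match to 1 of 6 short motifs searched on both strands.

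Frem1, chr4:83052167-83052416: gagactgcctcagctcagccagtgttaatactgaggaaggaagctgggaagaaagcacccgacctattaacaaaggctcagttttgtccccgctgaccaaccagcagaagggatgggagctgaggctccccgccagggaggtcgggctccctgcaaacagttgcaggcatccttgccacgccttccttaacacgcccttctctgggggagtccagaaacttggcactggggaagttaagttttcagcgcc

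Frem2, chr3:53657356-53657605: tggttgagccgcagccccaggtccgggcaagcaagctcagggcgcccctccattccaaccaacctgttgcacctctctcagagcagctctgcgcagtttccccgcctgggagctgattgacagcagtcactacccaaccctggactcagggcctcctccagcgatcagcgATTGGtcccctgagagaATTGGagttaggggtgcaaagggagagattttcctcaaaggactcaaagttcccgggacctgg

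Npnt, chr3:132950292-132950541: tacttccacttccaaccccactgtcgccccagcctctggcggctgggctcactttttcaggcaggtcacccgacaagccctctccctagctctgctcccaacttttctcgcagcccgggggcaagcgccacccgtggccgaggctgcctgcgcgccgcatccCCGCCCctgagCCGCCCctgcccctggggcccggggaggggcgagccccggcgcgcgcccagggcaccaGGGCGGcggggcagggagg

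The Frem1 and Frem2 regions lie inside the gene spans given with each gene, so these starts are not the outermost ends annotated for them, while the Npnt region lies directly before its span. Positions are counted from the start that each region precedes. The motifs were the GC box (GGGCGG), the CCAAT box (CCAAT), the TATA box (TATAAA), the AP-1 motif (TGANTCA), the Gli motif (TGGGTGGTC) and the Tcf motif (CTTTGAT). The Frem2 region held 2 CCAAT matches on the opposite strand, at -80 to -76 and -63 to -59 from the start, and CCAAT was present in 33.8% of 32851 such regions. The Npnt region held 3 GC boxes, at -88 to -83, -77 to -72 and -19 to -14, and 32.7% of regions had at least 1. The Frem1 region shown held none of the 6. Npnt also had the highest GC content of the 3 regions (74% with 21 CpG, against a median of 52.4% and 6 CpG over all regions), beside 59.6% for Frem2 and 56.8% for Frem1. Npnt and Frem1 each have another start listed, whose region is not shown. The other Npnt region (69.6% GC) and the other Frem1 region (45.6% GC) held no match to any of the 6 motifs. RefSeq upstream regions were found for 5 of the 6 members. Fras1 was not among them.

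Fras1, the founding subunit (gene 231470, mm10 chromosome 5, 96373777 to 96784733, plus strand), was at 347, 394 and 415 CPM in day 1 libraries 4, 5 and 6. The day 7 libraries 1, 2 and 3 held 189, 168 and 146 CPM of it, and the day 14 libraries 4, 5 and 6 held 2.90, 2.77 and 3.03 CPM. The 3 ages did not overlap, and the day 14 libraries had a coefficient of variation of 4.37%. The mean went from 385 ± 34.7 CPM to 168 ± 21.7 and then 2.90 ± 0.127. The first step was a log2 fold change of -1.20 ± 0.09 and the second one of -5.85 ± 0.12, 57.8-fold lower at day 14 than at day 7. Over the 2 steps together Fras1 was 133-fold lower (log2 fold change -7.05 ± 0.12). Only 0.414% of the tested genes had a lower fold change than Fras1 from day 7 to day 14, which is the value that drew attention to it. What was left at day 14 was 145 to 152 reads per library, well above the 3 counts taken as the floor. In bulk libraries such as these, fewer cells that carry a transcript and less transcript per cell cannot be told apart.

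Frem2, the second membrane-anchored subunit (gene 242022, chromosome 3, 53513938 to 53658593, minus strand), was at 512, 502 and 455 CPM in day 1 libraries 4, 5 and 6 and at 408, 419 and 406 CPM in day 7 libraries 1, 2 and 3. At day 14 it was at 139.7, 153 and 166 CPM. Ages again did not overlap, but the day 7 libraries sat only just below the lowest day 1 library. The mean went from 489 ± 30.5 to 411 ± 7.15 and 153 ± 13.4 CPM, with log2 fold changes of -0.25 ± 0.06 and -1.42 ± 0.06. Frem2 was thus 3.19-fold lower at day 14 than at day 1, beside 133-fold for its partner Fras1.

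Frem1, the subunit without a membrane anchor (gene 329872, chromosome 4, 82897920 to 83052506, minus strand), was the least abundant of the 3 matrix subunits. It had 1270, 835 and 705 reads in day 1 libraries 4, 5 and 6, which is 18.8, 13.4 and 11.5 CPM. At day 7 it had 16, 83 and 22 reads, or 0.253, 1.35 and 0.426 CPM, and at day 14 it had 20, 14 and 10 reads, or 0.399, 0.264 and 0.199 CPM. All later libraries lay below those of day 1, while days 7 and 14 overlapped, with day 7 library 2 standing above the rest. The log2 fold change of the first step was -4.41 ± 0.53, 21.3-fold lower at day 7, and 0.524% of the tested genes had a lower one. The second step gave -1.24 ± 0.70, and -0.22 without day 7 library 2.

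**Figure D1:**
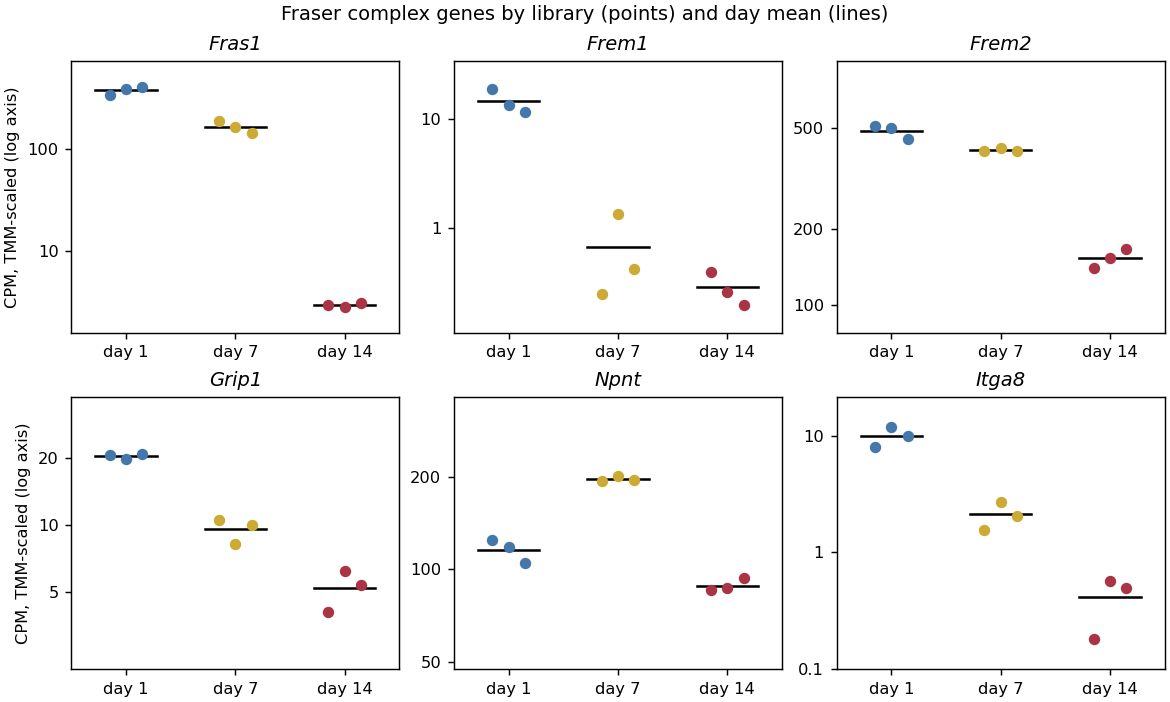
Level of each of the 6 genes in CPM on TMM-scaled libraries (log axis, a separate scale in each panel) at days 1, 7 and 14; points are the 3 libraries of a day in order of their header numbers and lines are the day means. Fras1 ends at 2.77 to 3.03 CPM, Npnt is highest at day 7, and Frem1 at day 7 is spread from 0.253 to 1.35 CPM.

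Per exon length the make-up of the matrix subunits could be followed. Fras1, Frem1 and Frem2 together summed to 59.7 ± 1.27 CPM per kb at day 1, 40.5 ± 1.42 at day 7 and 11.7 ± 1.00 at day 14. Fras1 made up 36.4 ± 3.55% of that sum at day 1, 23.3 ± 2.31% at day 7 and 1.398 ± 0.108% at day 14. Frem1 made up 1.74 ± 0.452%, 0.119 ± 0.102% and 0.179 ± 0.0789%. Frem2 held the remainder, which went from 61.8 ± 3.13% through 76.6 ± 2.29% to 98.4 ± 0.186%. The ratio of Frem2 to Fras1 was between 1.47 and 1.97 in the day 1 libraries, between 2.88 and 3.72 at day 7 and between 64.5 and 73.9 at day 14.

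**Figure D2:**
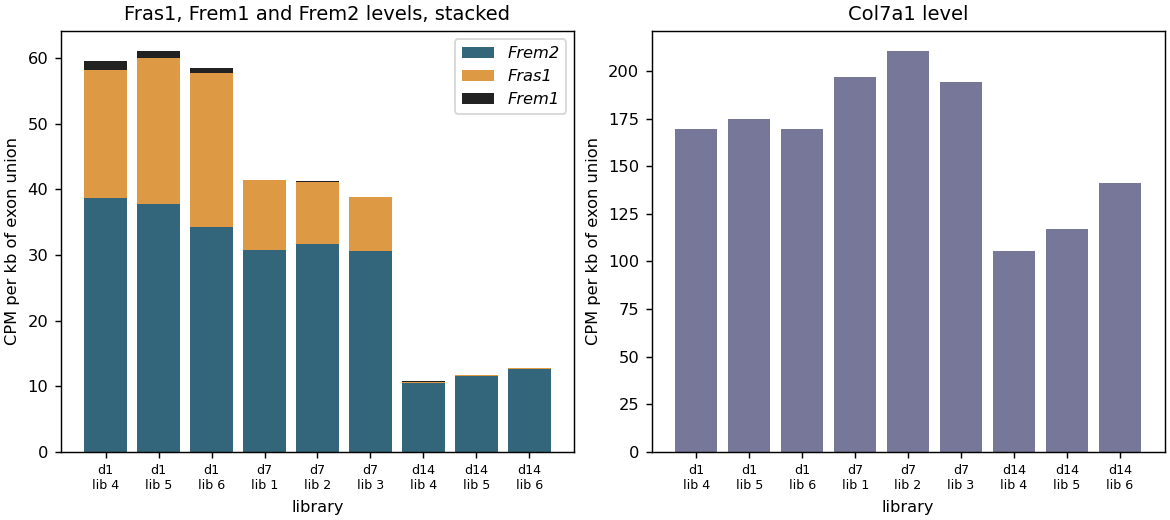
Left, CPM per kb of exon union of Frem2, Fras1 and Frem1 stacked for each of the 9 libraries (d1, d7 and d14 are days 1, 7 and 14); right, the same measure of Col7a1, the anchoring fibril collagen. The stack shrinks from 58.5 to 61.1 CPM per kb at day 1 to 10.7 to 12.7 at day 14 and is almost all Frem2 there, while Col7a1 ends at a mean of 121 CPM per kb.

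Grip1, the adaptor (gene 74053, chromosome 10, 119453238 to 120087267, plus strand), was at 20.7, 19.8 and 20.9 CPM in day 1 libraries 4, 5 and 6, at 10.5, 8.17 and 9.98 CPM in day 7 libraries 1, 2 and 3, and at 4.03, 6.20 and 5.33 CPM in day 14 libraries 4, 5 and 6. Each age lay wholly below the one before. Its log2 fold changes were similar in the 2 steps, -1.10 ± 0.13 and -0.88 ± 0.14, and it was 3.94-fold lower at day 14 than at day 1. Its last exons share their span with the opposite-strand gene Helb, a DNA helicase, and the counting is not stated to use strand. Helb itself was at 31.8 ± 1.13, 30.9 ± 0.413 and 47.7 ± 2.14 CPM at days 1, 7 and 14, so it was higher at day 14, where Grip1 was lowest.

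Npnt, the ligand (gene 114249, chromosome 3, 132881745 to 132950291, minus strand), took another course. It was at 124, 118 and 105 CPM in day 1 libraries 4, 5 and 6, at 194, 201 and 194 CPM in day 7 libraries 1, 2 and 3, and at 85.4, 86.6 and 93.4 CPM in day 14 libraries 4, 5 and 6. The day 7 libraries were all above those of either other age, and the day 14 libraries all below those of day 1. The log2 fold change was 0.76 ± 0.06 in the first step and -1.15 ± 0.06 in the second, and -0.39 ± 0.06 from day 1 to day 14.

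Itga8, the receptor chain (gene 241226, chromosome 2, 12106632 to 12301985, minus strand), was at 8.002, 11.95 and 9.91 CPM in day 1 libraries 4, 5 and 6. It was at 1.56, 2.72 and 2.07 CPM at day 7 and, with 9, 30 and 25 reads, at 0.18, 0.566 and 0.498 CPM at day 14. Ages did not overlap. Its steps were of like size, -2.23 ± 0.29 and -2.34 ± 0.35, and it was 23.8-fold lower at day 14 than at day 1. An antisense gene, E030013I19Rik, lies across its first exon and had 5 to 32 reads per library at day 1, 5 to 10 at day 7 and 0 at day 14. Its beta partner Itgb1, which pairs with many alpha chains, averaged 381 ± 34.5, 380 ± 11.2 and 331 ± 29.2 CPM. It was not called in the first step (edgeR adjusted p = 0.957) and fell in the second (-0.20 ± 0.07, adjusted p = 0.0274), a call lost with RLE size factors and when day 7 library 3, day 14 library 4 or day 14 library 5 was left out, with the highest adjusted p of any alternative at 0.0888. Per kb, the ratio of Npnt to Itga8 was 17.6 ± 4.52, 142.5 ± 36.8 and 399 ± 259 in order of age.

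In the first step 5 of the 6 members had every day 7 library below every day 1 library, as 30% of all tested genes did, and 1 had them all above, as 30.4% did. In the second step 5 had every day 14 library below every day 7 library, as 37.4% of genes did, and 0 had them all above, as 35.3% did. Between days 1 and 14 all 6 members had the later libraries below, against 40.5% of genes, and 0 above, against 36.9%. At an adjusted p under 0.05 the members counted as called would be 6, 5 and 6 in the 3 pairs of days, where 49.4%, 67.6% and 73.9% of all genes were called. Fras1, Frem2, Grip1 and Itga8 were lower by that measure in both steps, as 10.2% of genes were, and Npnt was higher and then lower, as 7.24% were. The rule used these contrasts, so nothing is read from those counts. Their medians of log2 fold change were -1.15, -1.33 and -3.28, beside -0.001, -0.035 and -0.046 over all tested genes.

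Ranked by CPM per kb, the order of the members changed with age. At day 1 Frem2 led at 36.9 ± 2.30 CPM per kb, followed by Npnt (23 ± 1.95) and Fras1 (21.8 ± 1.96), whose libraries overlapped, then Grip1 (2.54 ± 0.068). Itga8 (1.35 ± 0.268) and Frem1 (1.04 ± 0.271) overlapped at the bottom. At day 7 Npnt led at 39.1 ± 0.844, ahead of Frem2 (31 ± 0.54) and Fras1 (9.46 ± 1.23), and no neighbours overlapped. At day 14 Npnt (17.6 ± 0.849) and Frem2 (11.6 ± 1.007) came first, Grip1 (0.644 ± 0.135) stood above Fras1 (0.164 ± 0.00716), and Itga8 (0.0562 ± 0.0279) and Frem1 (0.0206 ± 0.00732) again overlapped. Taking the longest transcript in place of all exons as the length, a choice made after seeing the data, left this order as it was.

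The courses of the members were compared with those of other genes by the root mean square difference of log2 CPM, each gene centred on its own mean over the 9 libraries. Among genes with at least 10 CPM at their highest age, the nearest to Fras1 were Tyr, the melanin enzyme tyrosinase (0.423), the aldehyde oxidase Aox4 (0.438), the stefin Stfa1 (0.516), whose reads may be shared with near-identical copies, and Brinp1 (0.526). Tyr went from 33.4 through 9.57 to 0.164 CPM and Aox4 from 47.4 through 29 to 0.197 CPM. Close to Frem1 were the GTPase Rragd (0.521) and the chondroitin sulfotransferase Chst11 (0.533). Chst11 went from 28 CPM at day 1 to 1.89 at day 7 and 0.873 at day 14.

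Closest to Frem2 were Exo1, a DNA exonuclease (0.0673), the repair gene Brca1 (0.0826) and the mitotic kinesin Kif15 (0.0954), and Kif15 went from 60.7 through 52.1 to 19.7 CPM. For Npnt they were Coro2a (0.0566), the efflux pump Abcg2 (0.0804) and Rab27b (0.0998), and Abcg2 went from 36 to 66.9 and 29 CPM. Grip1 was closest to Mpdz, another protein of many PDZ domains (0.165), Zfp90 (0.166) and the katanin subunit Katnal1 (0.174). Itga8 was closest to Agrp (0.273), the collagen gene Col5a1 (0.399) and Nav1 (0.436). Among the members themselves the nearest pair was Frem2 and Grip1 (0.387), and the nearest member to Fras1 was Itga8 (1.59). These values are descriptions over libraries that share age, and the nearest gene was picked from 9602 or 9603 candidates while a member has 5 fellow members.

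**Figure D3:**
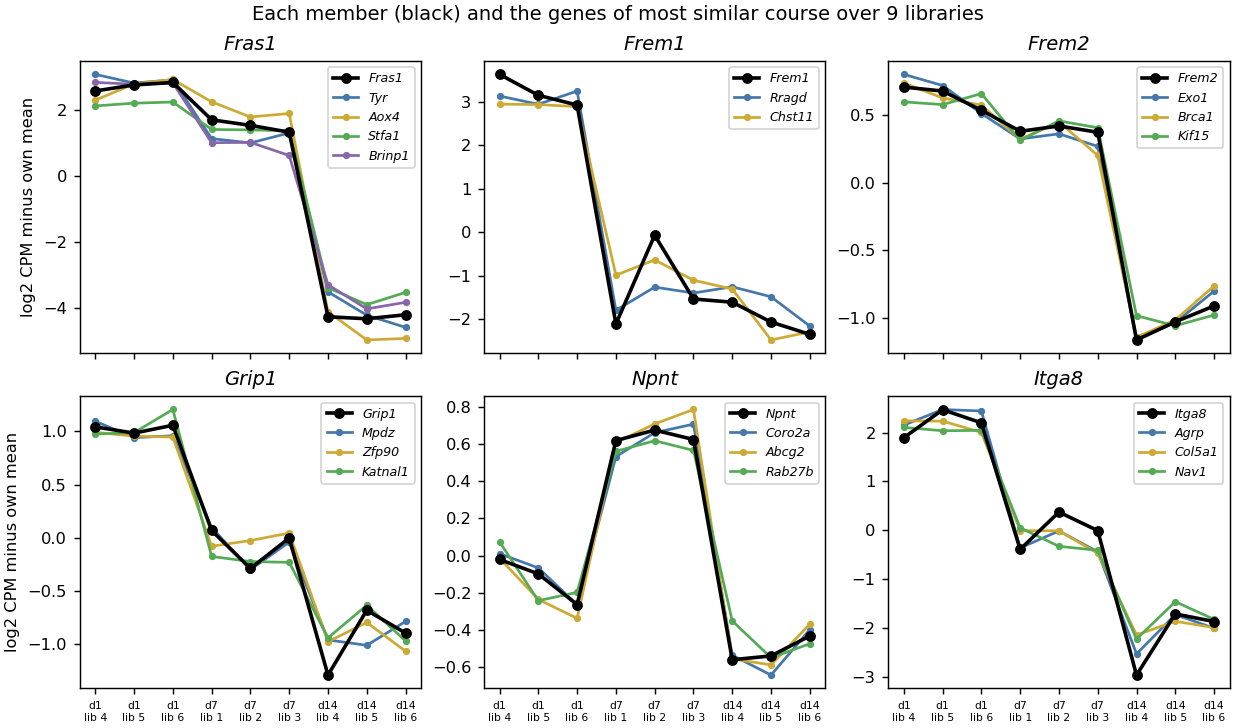
Course of each member (black) and of the genes named beside it in the text (colours) over the 9 libraries, as log2 CPM minus the gene's own mean. Fras1 and Tyr drop together between days 7 and 14, and Npnt, Coro2a, Abcg2 and Rab27b peak at day 7.

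The label keratinocyte was checked on markers. The 5 basal keratinocyte markers summed to between 30870.0 and 45600.0 CPM in every library, with Krt5 at 21980.0, 22460.0 and 15520.0 CPM at days 1, 7 and 14. Of these 5, 2 rose and 1 fell in the first step, and 2 rose and 3 fell in the second. From day 1 to day 14, 3 rose and 2 fell. Krt5 was not called in the first step and fell in the second (log2 fold change -0.53 ± 0.05), and Krt14 fell in both (-0.29 ± 0.05 and -0.57 ± 0.05). Trp63, the transcription factor of basal keratinocytes, rose in both steps (0.20 ± 0.04 and 0.17 ± 0.04), but neither step was called when libraries were scaled by their totals alone (0.097 with adjusted p = 0.102, and -0.0065 with adjusted p = 0.91). Total counts ran from 50670191 to 62970768 per library, and across genes the pairs of libraries within an age had Pearson correlations of 0.994 to 0.996. Xist was at 0 CPM in the day 7 libraries and the Y-linked Ddx3y at 0 CPM in the day 14 ones, so the sex make-up of the libraries and their age cannot be told apart. Every day 1 library had both, Xist at 861 to 1642 CPM and Ddx3y at 29 to 55.6 CPM. Each day 1 library thus carried reads of both sexes, as a pool of animals would. With library totals as the only scaling, the median log2 fold change of all genes moved to -0.1, -0.21 and -0.319 in the 3 pairs of days, and the share of called genes that were higher at the later day from 51.5%, 48.1% and 48.1% to 35.7%, 34.9% and 31.9%. The direction of every member in every pair was the same under that scaling.

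Itga8 and Frem1 also belong to other cells of skin, and markers of those cells were measured beside them. The summed level of 9 fibroblast markers was 1503 to 1636 CPM at day 1, 1316 to 1382 at day 7 and 249.8 to 269 at day 14, most of it from Postn, and at most 2 of the 9 were at 0 in any library. Of the 8 that were tested, Col1a2, Dcn and Postn fell in the first step and Postn alone in the second. Without Postn, left out after its share was seen, the other 8 summed to 226, 122 and 139 CPM in day 1 libraries 4, 5 and 6, to 17.3, 61.9 and 18.7 CPM in day 7 libraries 1, 2 and 3, and to 37.5, 22.7 and 17 CPM in day 14 libraries 4, 5 and 6. At each age the library with the highest sum of these 8 was also the one with the highest Frem1. The same libraries had the highest sum of hair matrix and placode markers (757.5, 86.2 and 105 CPM). The next highest of those sums were 687, 84.1 and 99.8 CPM, close to the highest at days 7 and 14. With Postn included, the fibroblast sum and Frem1 did not match at day 1. That sum was highest there in library 6 (1636 CPM), the library with the lowest Frem1. Itga8 and the sum of the 8 without Postn matched at day 7. At days 1 and 14 the library highest in these 8 had the lowest Itga8. Day 7 library 2 was also highest in the summed smooth muscle, endothelial, basal and suprabasal keratinocyte markers, though not in those of melanocytes or Schwann cells. The part of fibroblasts or hair matrix cells in the level of Frem1 was not tested. The 6 smooth muscle and pericyte markers summed to at most 4.08 CPM in any library and were highest at day 14, with the muscle gene Des at 0 in all 9, and the 4 endothelial markers to at most 1.45 CPM. The 5 leukocyte markers summed to 1.72 to 2.93 CPM at day 1, 3.245 to 4.295 at day 7 and 17.1 to 18.8 at day 14. Most of that sum was Cd74, at 1.59, 2.82 and 14.2 CPM in order of age. Ptprc, the gene of CD45, was at 0.15 CPM at day 14. All 4 that were tested rose in the second step. Whether these reads came from leukocytes left by the sort was not tested.

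Markers of hair follicle and pigment cells changed over the same days. The 5 outer root sheath and bulge markers summed to 1365 to 1434 CPM at day 1 and 911 to 1248 at day 7. At day 14 their sum was 656 to 878 CPM, and most of it at each age was Krt17 (1237, 953 and 634 CPM). Of these 5, 0 rose and 2 fell in the first step, and 0 rose and 1 fell in the second. The 6 markers of hair matrix and placode summed to 622 to 758 CPM at day 1 and 75.5 to 86.2 at day 7. At day 14 their sum was 89.3 to 105 CPM. Of the 6, 5 fell and 1 rose in the first step, and 1 fell and 2 rose in the second. Most of the sum at each age was 1 gene of the 6, at 538.5, 66.1 and 82.65 CPM in order of age. All 5 melanocyte markers fell in both steps, and their sum went from 345.5 to 376 CPM at day 1 through 98.8 to 119.6 at day 7 to 4 to 8.07 at day 14. Sums of 3 Schwann cell markers, of which Sox10 is shared with melanocytes, went from 18.1 to 20.8 CPM at day 1 to 1.61 to 2.06 at day 14. The part of any of these cells in the levels of Fras1, Frem1 or Itga8 was not tested.

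**Figure D4:**
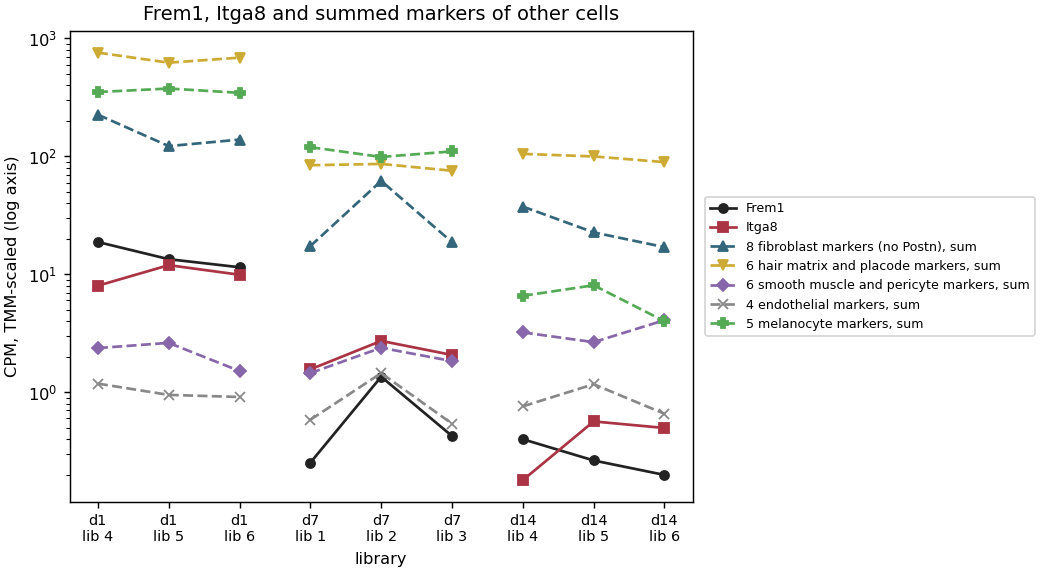
CPM (log axis) of Frem1 and Itga8 and summed CPM of marker lists of other skin cells in each library; lines join the libraries of a day and have no order in them. Among the day 7 libraries, Frem1, Itga8 and the fibroblast, hair matrix, smooth muscle and endothelial sums are each highest in library 2, and the melanocyte sum is not. The smooth muscle and endothelial sums stay between 0.542 and 4.08 CPM.

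Other genes of the same structures gave a tested background. Of 62 tested genes in 7 related lists, 13 rose and 26 fell from day 1 to day 7 by edgeR's quasi-likelihood test, against 25.5% and 24% of all tested genes. From day 7 to day 14, 21 rose and 20 fell, against 32.5% and 35.1%. From day 1 to day 14, 22 rose and 30 fell, against 35.5% and 38.4%, and with library totals alone 14 rose.

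Genes tied to the complex by earlier genetics or binding did not share 1 course. Vwa2, whose product AMACO binds Fras1, averaged 216 ± 12.7, 45.7 ± 0.626 and 38.95 ± 6.01 CPM in order of age. It fell in the first step (log2 fold change -2.24 ± 0.09, edgeR adjusted p = 4.32e-08), whereas the call of its second step (-0.23 ± 0.09, 0.0477) was lost with RLE size factors, with DESeq2 and without any of 6 single libraries (day 1 library 4, day 7 libraries 1, 2 and 3, day 14 libraries 4 and 5), with adjusted p from 0.000186 to 0.13 over the alternatives. Hmcn1, encoding hemicentin of the same basement membrane zone, rose from 15.8 ± 3.88 to 94.7 ± 16.5 CPM (2.58 ± 0.26, adjusted p = 0.000206) and fell to 50 ± 11.3 CPM (-0.92 ± 0.25, adjusted p = 0.0136). Furin, a convertase of matrix precursors, was not called in the first step (a fall of -0.18 was called with library totals alone) and rose in the second (0.52 ± 0.05). The 2 near relatives of members were close to silent: Frem3 had 0 reads at days 1 and 7, which allows up to 0.058 CPM in a library, and 0, 5 and 5 reads at day 14, and Grip2 did not pass the filter either. Hmcn2 was not found by that symbol in the deposited gene table.

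Among 5 further ligands of the Itga8 integrin, 3 were tested. Egfl6, a basement membrane protein of the follicle, rose from 4.79 ± 0.502 to 8.14 ± 0.552 and 26 ± 3.50 CPM, while Npnt peaked at day 7. Tnc (tenascin-C) fell from 754 ± 124 through 414.5 ± 42.7 to 51.5 ± 4.67 CPM, by -0.86 ± 0.13 and then -3.01 ± 0.14 on the log2 scale (edgeR, adjusted p = 0.000623 and 2.22e-07). Fibronectin, Fn1, fell in both steps (-0.77 ± 0.07 and -0.62 ± 0.07). Vtn and Spp1 did not pass the filter.

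Of 10 genes whose proteins bind Grip1, 1 rose and 4 fell in the first step. Over the alternatives the fallers of that step ran from 3, as without day 7 library 3, to 6 with library totals alone. In the second step 6 rose and 1 fell. With library totals alone 3 rose and 2 fell there. The counts were 7 and 2 without day 7 library 2, and 6 and 2 without day 14 library 4. The ephrin Efnb1 rose in both steps (0.39 ± 0.06 and 0.99 ± 0.06). The receptor Epha7 fell in both (-1.44 ± 0.25 and -3.44 ± 0.33), ending at 0.163 CPM. Cspg4, the NG2 proteoglycan that shares its repeats with the Fraser proteins, fell and then rose (-0.89 ± 0.12 and 0.43 ± 0.12, the second call lost with library totals alone, adjusted p = 0.0865 against 0.000195 at the lowest). The kinesin Kif5b was at 307 CPM at day 1, was not called in the first step and rose in the second (0.24 ± 0.05), a call lost with library totals alone (0.07, adjusted p = 0.216).

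Other integrin chains went both ways. Of 17, 3 rose and 8 fell in the first step, and 8 rose and 4 fell in the second (6 and 6 with library totals alone). Itga3, the laminin receptor chain of basal keratinocytes, rose from 345 to 478 and 603 CPM (0.47 ± 0.07 and 0.34 ± 0.07), and Itgav rose too (0.65 ± 0.06 and 0.30 ± 0.06, the second call lost with library totals alone, adjusted p = 0.0918 against 3.7e-06 at the lowest). The largest falls of the first step were those of Itga4 (-2.28 ± 0.26), Itga9 (-2.17 ± 0.37) and Itga1 (-0.96 ± 0.20), all at or under 4.26 CPM at day 1.

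Of 11 genes for collagen IV chains and linking proteins, 1 rose and 6 fell in the first step, and 0 rose and 6 fell in the second (1 rose without day 14 library 4). Over the alternatives the fallers of the second step ran from 5, as with RLE size factors, to 9 with library totals alone. Perlecan, Hspg2, fell from 802 ± 50.6 through 286 ± 29 to 107 ± 13.3 CPM (-1.49 ± 0.10 and -1.42 ± 0.10). The nidogen Nid2 fell from 5.15 through 0.562 to 0.0465 CPM (-3.17 ± 0.42 and -3.58 ± 0.67). Col4a1 fell from 409 to 89.5 CPM in the first step (-2.19 ± 0.12, adjusted p = 9.99e-07), and Col18a1 was not called in that step and fell in the second (-1.42 ± 0.08).

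Of 11 laminin chains, 0 rose and 5 fell in the first step (7 fell with DESeq2 and with library totals alone). In the second step 2 rose and 4 fell (7 fell with library totals alone). At 0.05, Lama1 missed the call in the first step (adjusted p = 0.0504) and was the 1 riser with DESeq2 and on leaving out day 1 library 5, day 7 library 1 or day 14 library 6 (over all alternatives its adjusted p ran from 0.0277 to 0.203). Lamb1 fell in both (-1.56 ± 0.11 and -0.64 ± 0.11). Lama1 went against this course in the second step, from 2.67 ± 0.439 to 31.6 ± 3.29 CPM (3.57 ± 0.14, adjusted p = 1.39e-09), and none of the day 14 libraries overlapped the earlier ones.

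Hemidesmosome and anchoring fibril genes rose for 6 of 7 in the first step and 0 fell. In the second step 3 rose and 1 fell, with 3 and 3 on leaving out day 14 library 6 and 2 and 2 with library totals alone. Col17a1, the collagen that spans the basal membrane, rose from 4647 ± 89.3 to 6587 ± 140 CPM (0.50 ± 0.09, adjusted p = 0.00117). The linker Plec rose from 678 ± 8.59 through 888 ± 77.3 to 1847 ± 171 CPM (0.39 ± 0.07 and 1.06 ± 0.07), and Itga6 rose in both steps by 0.25 ± 0.05, the second call being lost with library totals alone (adjusted p = 0.208 against 3.77e-06 at the lowest). Itgb4 rose by 0.25 ± 0.08 in the first step (adjusted p = 0.0267), which was not called with library totals alone or on leaving out day 1 library 5, day 1 library 6, day 7 library 2 or day 7 library 3 (over all alternatives its adjusted p ran from 0.00102 to 0.146).

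Col7a1, which forms the anchoring fibrils, averaged 1763 ± 32.1, 2063 ± 88.4 and 1246 ± 188 CPM in order of age. The first difference did not pass the test (0.23 ± 0.09, adjusted p = 0.0581, passing with DESeq2 and without day 14 library 4 or 6, from 0.00155 to 0.257 over the alternatives), and the second was a fall (-0.73 ± 0.09, adjusted p = 4.82e-05). Per kb, Col7a1 stood at 2.87 ± 0.0258 times the sum of Fras1, Frem1 and Frem2 at day 1, 4.95 ± 0.179 times at day 7 and 10.3 ± 0.696 times at day 14. From day 1 to day 14 it was lower by -0.50 ± 0.09 on the log2 scale (edgeR adjusted p = 0.000517), beside -1.68 ± 0.07 for Frem2 and -7.05 ± 0.12 for Fras1.

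**Figure D5:**
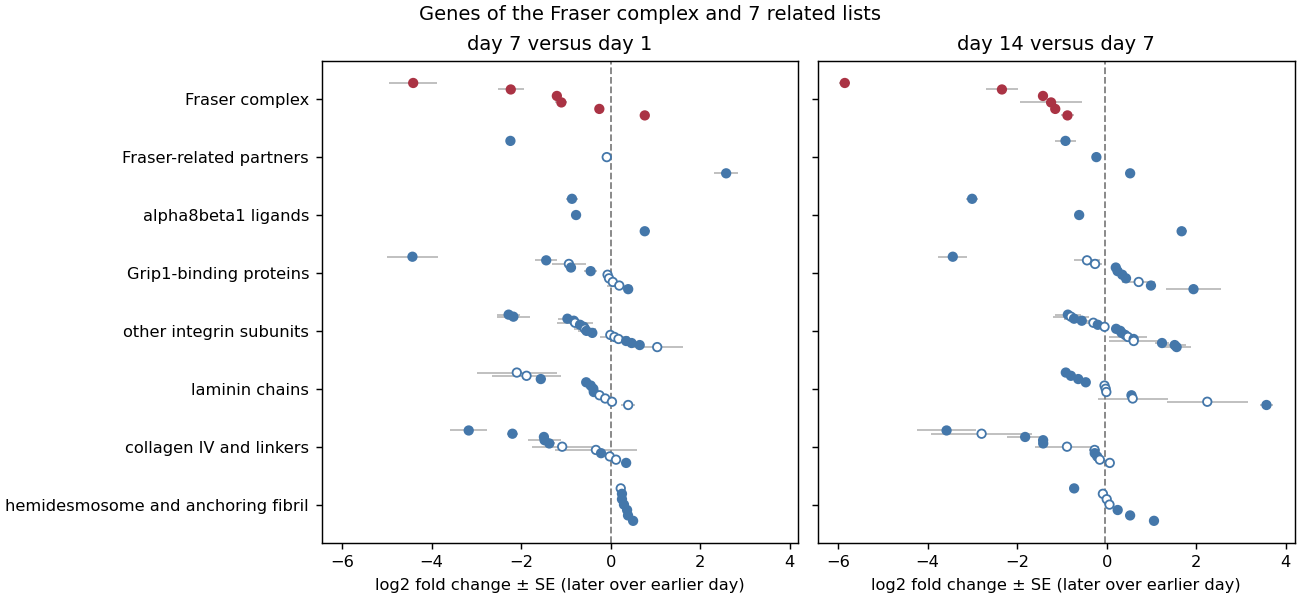
Log2 fold change ± SE of each tested gene in the Fraser set (red, described without a test) and 7 related lists (blue filled, adjusted p under 0.05; open, not called) for day 7 versus day 1 and day 14 versus day 7; the dashed line is the median of all tested genes. In the second step Fras1 at -5.85 lies left of every gene of the related lists, and Lama1 at 3.57 lies farthest right.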

How the data were processed

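Per the column headers, the authors gave each gene a read count. These counts were taken here as not normalised, which the headers do not state. The submitters' processing notes name bcl2fastq (2.20.0), Trimmomatic, HISAT2 (2.1.0), StringTie (1.3.4d) and mm10. How reads were counted, whether strand was used and which annotation served is not given in the sources used here. The other 18 value columns (FPKM and TPM) were not used. Like the count columns, they can be tied to an age but not to a sample. Levels per length were instead computed from the counts as CPM per kb of the exon union in GENCODE M21, which understates genes with many alternative exons.

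Counts were filtered with filterByExpr and TMM-scaled. The test was edgeR 4.0.16 in R 4.3.3, a robust quasi-likelihood fit to all 9 libraries with age as the factor, adjusted by Benjamini-Hochberg over 14507 genes and called under 0.05. The code was tested on simulated counts. SE is the size of the log2 fold change divided by the root of F. With 50670191 to 62970768 counts per library, 3 counts correspond to 0.0444 to 0.0599 CPM, which covers counting error only. Alternatives were RLE factors, library totals, DESeq2 1.42.0, limma 3.58.1 (voom), no filter, a replicate block and leaving out each library.

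The 6 members and all lists were chosen with earlier results of these data known. Besides members, named genes are up to 3 called rises and falls of largest size per list and pair of ages, markers, Itgb1, Col7a1, Col17a1, Itga6, Itgb4, Trp63, Krt5, Krt14, Xist and Ddx3y, and the 3 nearest courses per member (4 for Fras1) on log2(CPM + 0.1). Others the text names were chosen after their values were seen. Some genes that this rule or the lists would name are not reported here by name, and counts over lists include them. Gene spans and upstream regions are RefSeq's for GRCm38.p6.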

Additional observations from a re-analysis of the deposited data

How the results depend on the processing

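Each member kept its direction in every pair of days under RLE size factors, library totals, DESeq2, limma-voom, no low-count filter and each left-out library. The side of the threshold changed for 1 member: from day 7 to day 14 the log2 fold change of Frem1 ran from -1.67 without day 7 library 1, where it passed, to -0.22 without day 7 library 2. With library totals alone, 14 rather than 22 genes of the 7 related lists rose from day 1 to day 14, and 3 small changes reversed: Trp63 from day 7 to day 14 (-0.0065), and from day 1 to day 14 Ppfia1 (-0.138) and Col4a6 (-0.0831). In these libraries that scaling also lowered the median of all genes, as it leaves out the TMM factors. Those were 1.08 to 1.10 at day 1 and 0.894 to 0.910 at day 14. Deposited TPM in place of counts was not run. Frem1 and Itga8 rest on 9 to 30 reads in each day 14 library, so their late levels are the least precise.

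The titles number the samples of each day alike, but columns cannot be tied to titles. For days 1 and 14, whose headers share numbers, a fit of those 2 ages with the header number as a replicate block called 10170 genes, against 10531 without the block. Libraries of the same number correlated at -0.0261, 0.0541 and 0.148 in their deviations from the day mean, and those of different numbers at -0.126 to 0.0779. Not every library correlated best with its own number. With 3 libraries a day, these values cannot decide whether the numbers pair them. No paired analysis was possible for day 7, because its header numbers are shared with no other age.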
